A study of Mus musculus with 2 samples.

Results

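Enzymes that build purines, pyrimidines and their one-carbon units were compared between thymocytes of null and of wild-type mice. The set was given as 10 genes, taken by symbol or by a synonym of the same gene ID, out of 16504 genes on the array. Of the 10, 9 had at least 1 feature (a probe sequence on the array). Impdh2, which catalyses the committed step towards guanine nucleotides, had none in the platform annotation used here, so no value is given for it. Thymocytes are the developing T cells of the thymus, and the labels give the source as thymus but describe the cells as thymocytes. One group was homozygous null (-/-) for the gene under study and the other wild type (+/+), and neither strain nor age is given in the sources used here. RNA of 3 mice was combined into 1 pool per genotype. Those pools were hybridised together on 2 two-colour arrays, on the first with null RNA in the dye Cy5 and on the second with null RNA in Cy3. They are called the Cy5 array and the Cy3 array below, after the dye of the null RNA. The arrays therefore repeat the measurement of 1 pair of pools. They give no spread between mice, so no p-value was computed, and each SD here is technical, over n = 2 arrays. The file holds ratios without intensities, so neither the level of any transcript nor the labelled cell type could be checked against marker levels, and signal over background is unknown.

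Purine rings are built stepwise on a ribose phosphate, and pyrimidine rings are built first and then joined to it. Purine synthesis takes carbons from formyl groups carried by tetrahydrofolate, and thymidylate synthesis takes a methylene group from the same carrier. The carrier is loaded mainly from serine by parallel enzymes of the cytosol and the mitochondria. Proliferating lymphocytes are known to rely on these routes, and several of their genes, Cad among them, are classical targets of the transcription factor Myc.

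Most of the synthesis genes read above wild type in the null pool, by modest ratios, and none passed the size rule. A gene was called when it changed at least 1.5-fold (0.58 in log2) in the same direction on both arrays. None of the 9 measured members was called higher, where 0.412% of all genes were, and none was called lower, where 1.11% were. At such shares, the lack of calls among 9 genes says little about them. Above 0 on both arrays were 8 of the 9, against 25.0% of all genes. By the mean of both arrays, 7 of the 9 lay in the top 10% of genes. The median of the members' mean log2 ratio of null over wild type was 0.41, while that of all genes was 0.000931. That median exceeded the members' median on each array, which was 0.20 on the Cy5 array and 0.30 on the Cy3 array. Different members were high on each array, so the arrays are given apart below. The direction, null over wild type, is inferred from the dye labels and from the form of the second column, and is not stated in the file. In such bulk RNA, more cells that make a transcript and more transcript per cell cannot be told apart.

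**Figure D1:**
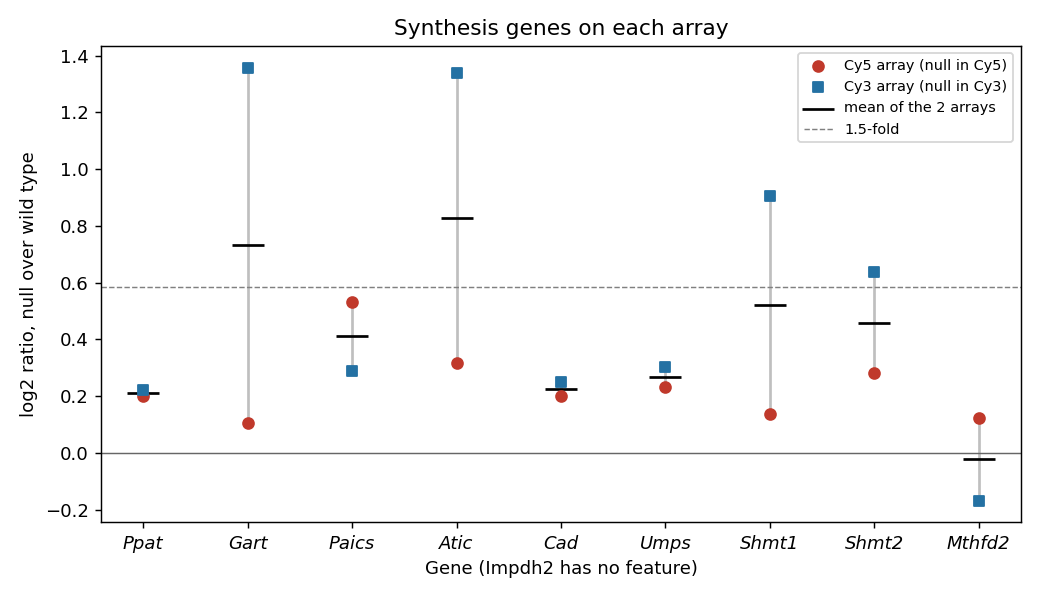
Log2 ratio of null over wild type (vertical axis) for the 9 measured synthesis genes (horizontal axis), with a circle for the Cy5 array, a square for the Cy3 array, a short bar for their mean and a dashed line at 1.5-fold. All circles lie under the line, whereas the squares of Gart, Atic, Shmt1 and Shmt2 lie above it.

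The purine enzymes Atic and Gart had the highest means of the 9 members, on the inferred direction, and also the widest spread between the arrays. Atic, which catalyses the final pair of reactions to inosine monophosphate, read 0.32 on the Cy5 array and 1.34 on the Cy3 array. Its mean was 0.83 (SD 0.72), and the fold was 1.2 on the Cy5 array and 2.53 on the Cy3 array. Gart, a multifunctional enzyme of the early steps, read 0.10 on the Cy5 array and 1.36 on the Cy3 array. Its mean was 0.73 (SD 0.89), and the fold was 1.08 on the Cy5 array and 2.56 on the Cy3 array. Each of these genes was thus well above 1.5-fold on 1 array only. Both enzymes use formyl-tetrahydrofolate as the carbon donor. By the mean on that direction, Atic ranked 40 and Gart 79 of 16504 genes. If the second column had not been turned, their values would be -0.51 and -0.63, the lowest of the 9 members. By the smaller of the array values, 2.44% of genes stood at or above Atic and 10.1% at or above Gart. The dye term, or the Cy5 array minus the Cy3 array over 2, holds dye bias and noise and had a size of 0.51 for Atic and 0.63 for Gart. Of all genes, 1.70% had a value at least as large as that of Atic and 0.915% as that of Gart.

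The stretches of 250 bases before the start sites of these genes are shown because Atic and Gart gave the highest means. The sequences are from RefSeq, build GRCm38.p6, each read 5′ to 3′ on the gene's strand. Capitals mark the E-box CACGTG, which Myc with its partner Max is known to bind and which reads the same on both strands, and the GC box GGGCGG on either strand (CCGCCC on the other), as bound by Sp1. Where GC boxes overlap, the capitals run together.
Atic, chr1:71556906-71557155, plus strand: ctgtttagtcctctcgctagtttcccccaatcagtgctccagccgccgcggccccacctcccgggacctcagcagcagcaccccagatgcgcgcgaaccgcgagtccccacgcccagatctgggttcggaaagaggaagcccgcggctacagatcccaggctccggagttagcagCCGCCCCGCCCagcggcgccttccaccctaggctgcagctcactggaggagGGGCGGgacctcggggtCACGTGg
Gart, chr16:91646973-91647222, minus strand: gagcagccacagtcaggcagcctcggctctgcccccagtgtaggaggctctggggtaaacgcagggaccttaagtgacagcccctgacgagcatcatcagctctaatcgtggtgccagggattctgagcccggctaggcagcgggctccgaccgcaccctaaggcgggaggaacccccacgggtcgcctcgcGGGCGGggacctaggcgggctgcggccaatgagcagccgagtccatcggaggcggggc
The Atic stretch ends in an E-box that begins 7 bases before the start site. The Gart stretch holds no E-box and 1 GC box, which begins 58 bases before the start site.

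Ppat and Paics act on either side of Gart and gave smaller, closer readings. Ppat catalyses the committed first step of purine synthesis. Its mean over both features was 0.20 on the Cy5 array and 0.22 on the Cy3 array, giving 0.21 (SD 0.02), or 1.16-fold. Paics, a bifunctional enzyme of the middle steps, read 0.53 on the Cy5 array and 0.29 on the Cy3 array. Its mean was 0.41 (SD 0.17), or 1.33-fold, and 2.88% of genes stood at or above it by the smaller of the array values. Paics had the highest value of the 9 members on the Cy5 array. In the RefSeq annotation these genes lie on opposite strands of chromosome 5, and their first 277 bases overlap, at chr5:76951302-76951578. The E-box of Paics begins 203 bases before its start site, at a place where Ppat is annotated on the other strand, and is shown for that shared position.
Paics, chr5:76951087-76951116, plus strand: cgcctcggaaagCACGTGgagggacctgct

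An E-box was found in 3 of the 10 member promoters, those of Atic, Paics and Impdh2, and in 7.15% of 32851 promoters of the RefSeq table (250 bases before to 50 after the start). A GC box was found in 8 of the 10 and in 35.7% of all promoters. The promoters of Shmt2 and Mthfd2 held neither. Sites outside the window searched, in Cad or any other member, were not counted. These matches describe letters only, and binding was not measured.

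The pyrimidine genes were close to Ppat in size. Cad carries the first steps of the pathway on 1 protein and includes its rate-limiting activity. It averaged 0.20 on the Cy5 array and 0.25 on the Cy3 array, for a mean of 0.23 (SD 0.04), or 1.17-fold. Umps, which turns orotate into uridine monophosphate, averaged 0.23 on the Cy5 array and 0.30 on the Cy3 array, for a mean of 0.27 (SD 0.05), or 1.20-fold. The arrays thus nearly coincided for the averages of Cad, Umps and Ppat, the 3 members that have 2 features each. Their single features lay further apart between the arrays. The SDs were 0.05 and 0.12 for the features of Cad, 0.16 and 0.06 for Umps and 0.12 and 0.15 for Ppat.

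Within each of these 3 genes, the features disagreed. The Ppat feature taken from its RefSeq mRNA record read 0.60 on the Cy5 array and 0.44 on the Cy3 array. The other Ppat feature, from another cDNA record, read -0.20 and 0.01. For Umps, the RefSeq feature read 0.52 on the Cy5 array and 0.75 on the Cy3 array, and the feature from another cDNA record read -0.05 and -0.14. In both genes the feature of the RefSeq record was thus the higher of the pair on each array. For Cad, both features were taken from the same RefSeq record. The higher Cad feature read 0.51 on the Cy5 array and 0.44 on the Cy3 array, and the lower one read -0.11 and 0.06. The modest gene means of Ppat, Cad and Umps are therefore averages of a feature about 0.5 to 0.6 above wild type and a feature near 0.

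**Figure D2:**
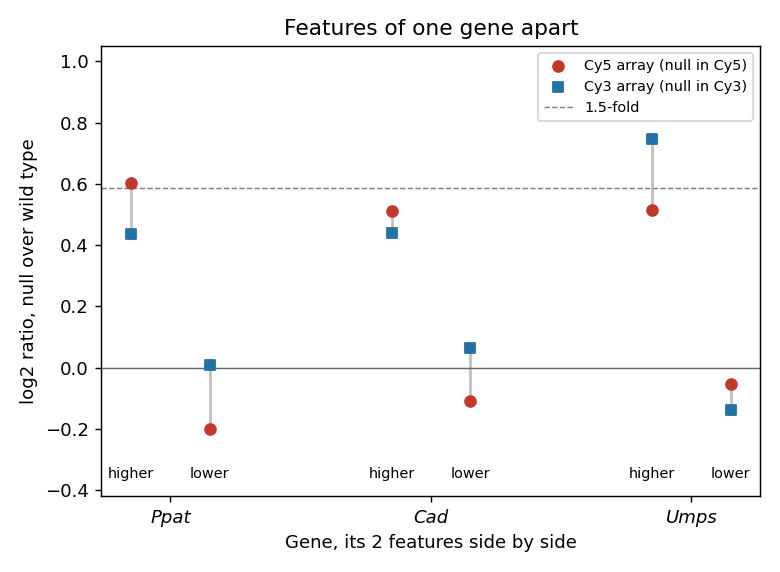
Log2 ratio of null over wild type (vertical axis) for the 2 features of Ppat, Cad and Umps (horizontal axis, the feature with the higher mean at the left), with circles for the Cy5 array, squares for the Cy3 array and a dashed line at 1.5-fold. The higher features read between 0.44 and 0.75 and the lower ones between -0.20 and 0.06, with no overlap within a gene.

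The gap between the features' means was 0.61 for Ppat, 0.50 for Cad and 0.73 for Umps. Over the 1030 genes with exactly 2 features the median gap was 0.12, and 0.37 marked the 90th percentile. A gap as large as that of Ppat occurred in 16 of the 1030 genes, as large as that of Cad in 38 and as large as that of Umps in 7. Among the 348 genes whose features share 1 record, as in Cad, 7 had a gap as large as that of Cad. Among the 682 whose features come from different records, 12 had a gap as large as that of Ppat and 6 as that of Umps. No feature reached 1.5-fold on both arrays. At a lower limit of 0.322 in log2, 3 features passed on both arrays, the higher one of each of these genes. No member's average did, against 2.29% of all genes, and Atic missed it narrowly at 0.317 on the Cy5 array. Which part of the transcript each feature detects was not examined here.

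The one-carbon genes differed among themselves. Shmt1, the cytosolic serine hydroxymethyltransferase, read 0.14 on the Cy5 array and 0.91 on the Cy3 array, for a mean of 0.52 (SD 0.55). As with Gart and Atic, the value past 1.5-fold came from the Cy3 array. Shmt2, the mitochondrial form of the same enzyme, read 0.28 and 0.64 in the same order, for a mean of 0.46 (SD 0.25), or 1.37-fold. Mthfd2, a mitochondrial methylene-tetrahydrofolate dehydrogenase that is induced in many proliferating cells, read 0.12 on the Cy5 array and -0.17 on the Cy3 array. Its mean was -0.02 (SD 0.21), and it was the sole measured member whose readings fell on opposite sides of 0. The means of Shmt1 and Shmt2 differed by less than the SD of either gene.

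Of the 9 members, 7 read higher on the Cy3 array than on the Cy5 array, as did 47.7% of all genes. On the Cy3 array alone, 4 of the 9 reached 1.5-fold, against 2.92% of all genes. On the Cy5 array alone, none did, against 2.31% of all genes, and the highest member was Paics at 1.45-fold. The part of dye bias in the high readings of Gart, Atic, Shmt1 and Shmt2 was not tested. Over all 16504 genes the Pearson correlation of the arrays was 0.238, given as a description since genes share pools and arrays.

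**Figure D3:**
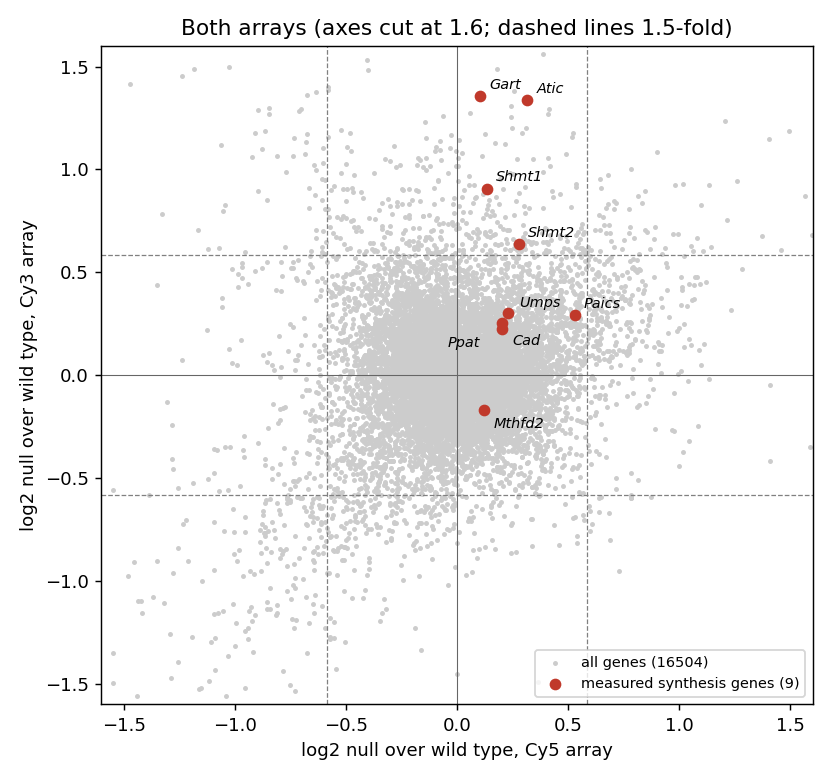
Log2 ratio of null over wild type on the Cy5 array (horizontal axis) against the Cy3 array (vertical axis) for all 16504 genes (grey) and the 9 measured synthesis genes (red), with dashed lines at 1.5-fold and axes cut at 1.6 on each side. No red point lies in the upper right field past both dashed lines, and Gart and Atic lie far up but near 0 to 0.3 along the horizontal axis.

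The enzymes that complete the same pathways were called in neither direction, as was true of nearly all genes (0.412% were called higher and 1.11% lower). The remaining steps of the route to inosine monophosphate are catalysed by Pfas, at 0.10 on the Cy5 array and 0.05 on the Cy3 array (mean 0.08, SD 0.04), and by Adsl, at -0.0028 and 0.34 (mean 0.17, SD 0.24). The purine enzymes of this route therefore ranged in their means from 0.08 for Pfas to 0.83 for Atic. Dhodh, the mitochondrial enzyme between Cad and Umps, read 0.77 and 0.23 (mean 0.50, SD 0.38). Ctps, which makes cytidine from uridine nucleotides, read 0.66 and 0.48 (mean 0.57, SD 0.13), or 1.48-fold. Mthfd1, the cytosolic trifunctional enzyme that forms formyl-tetrahydrofolate, read 1.02 on the Cy5 array and 0.58 on the Cy3 array (mean 0.80, SD 0.31). It passed 1.5-fold on the Cy5 array and missed it narrowly on the Cy3 array, where its fold was 1.49. Mthfd1l, which releases formate from the mitochondrial route, read 0.47 and 0.25 (mean 0.36, SD 0.15). Along the mitochondrial route, Shmt2 and Mthfd1l thus lay above 0 on both arrays and Mthfd2 did not.

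**Figure D4:**
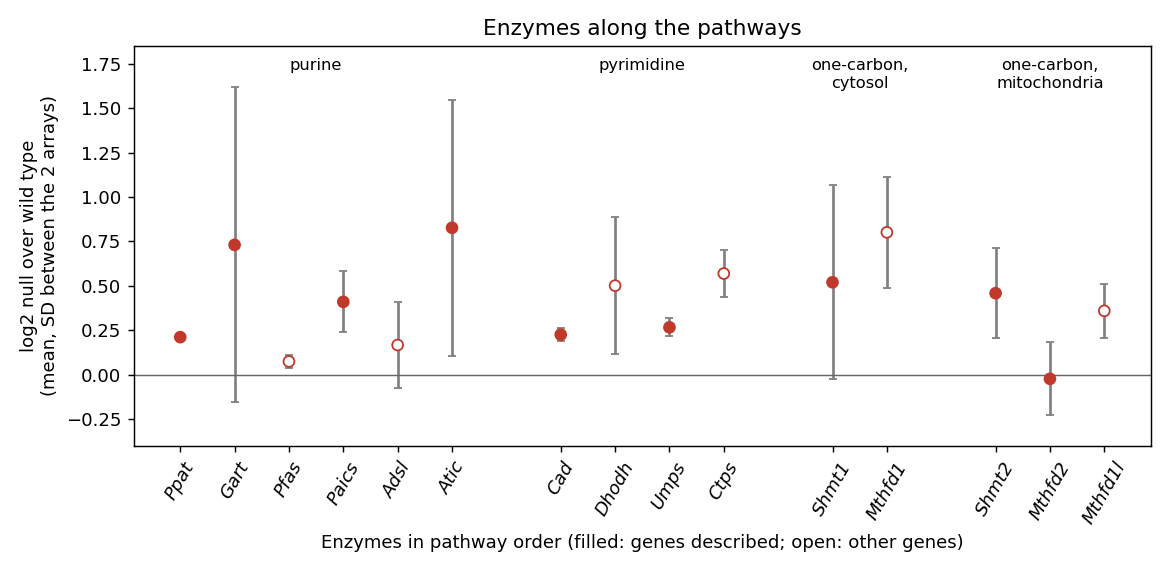
Mean log2 ratio of null over wild type with the SD between the 2 arrays (vertical axis) for enzymes in pathway order (horizontal axis), with filled points for the synthesis genes described and open points for other enzymes of the routes. The points vary from -0.02 for Mthfd2 to 0.83 for Atic, and the widest SDs are those of Gart and Atic.

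Other genes of nucleotide and folate metabolism were read from 6 lists. Of 63 genes listed, 58 were measured and none was called higher or lower, where 0.412% of all genes were called higher and 1.11% lower. At such shares, the lack of calls among 58 genes says little about these enzymes. Above 0 on both arrays were 32 of the 58, against 25.0% of all genes, the share to set beside the count of each list. The median of the 58 was 0.11. Of the 10 other purine synthesis genes (median 0.20), 7 lay above 0 on both arrays, and they ranged from Impdh1, the other inosine monophosphate dehydrogenase, at 0.03 (SD 0.21) to Gmps, which makes guanosine monophosphate, at 0.54 (SD 0.22). Of 4 other pyrimidine genes (median 0.39), 3 lay above 0 on both arrays, with Ctps the highest and Ctps2, its paralogue, the lowest at -0.14 (SD 0.06). The 3 serine synthesis genes (median 0.39) all lay above 0 on both arrays. Phgdh, which opens serine synthesis, read 0.56 and 0.73 (mean 0.65, SD 0.12), and Psat1, which follows it, was the lowest at 0.12 (SD 0.07).

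The folate, salvage and breakdown lists lay nearer to 0. Of 18 other one-carbon and folate genes (median 0.07), 9 lay above 0 on both arrays, from Mthfs, which recycles a formylated folate, at -0.51 (SD 0.18) to Mthfd1 at 0.80. Of 14 salvage genes, which reuse bases and nucleosides (median 0.09), 7 lay above and 4 below 0 on both arrays. Adk, the adenosine kinase, was the highest at 0.75 (SD 0.44) and Dck, the deoxycytidine kinase, the lowest at -0.39 (SD 0.36). Of 9 breakdown genes (median -0.01), 3 lay above and 3 below 0 on both arrays, from Xdh, which forms uric acid, at -0.13 (SD 0.04) to Ampd2, an AMP deaminase, at 0.14 (SD 0.13). The differences between these lists were not tested, since each pool was measured once per dye orientation.

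**Figure D5:**
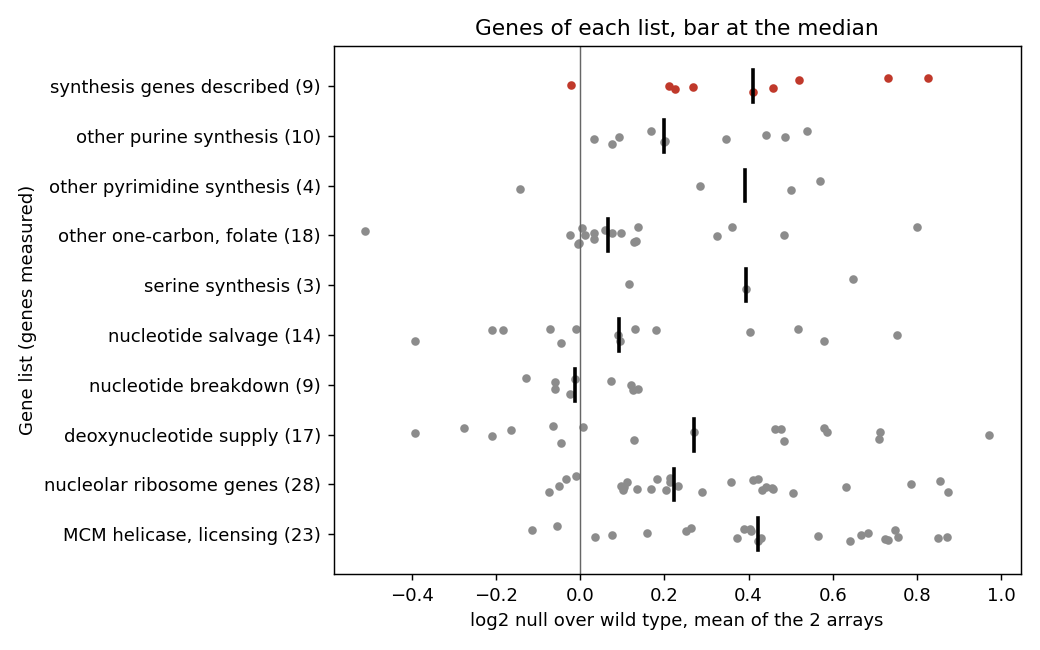
Mean log2 ratio of null over wild type over both arrays (horizontal axis) for each measured gene (points, spread vertically at random) of the synthesis genes described (red) and of other gene lists (grey), with the number measured in brackets and a bar at each median. The medians run from -0.01 for nucleotide breakdown to 0.42 for the MCM helicase and licensing genes, with the synthesis genes at 0.41.

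Gene sets of cell division and growth were set beside the synthesis genes. The 23 genes of the MCM helicase and origin licensing stood at a median of 0.42, against medians of 0.47 on the Cy5 array and 0.43 on the Cy3 array. Of these, 4 were called higher, against 0.412% of all genes, and Mcm6 had the highest mean at 0.87 (SD 0.03). The synthesis genes had a similar median of the means but lower array medians, and the median of the smaller array value was 0.20 for them and 0.37 for the MCM and licensing genes. Of 17 deoxynucleotide supply genes (median 0.27), 2 were called higher, with Dut, which removes dUTP, highest at 0.97 (SD 0.06). This list shares Tyms with the folate list and Tk1, Tk2, Dck and Dguok with the salvage list. Of 28 nucleolar ribosome biogenesis genes (median 0.22), 1 was called higher, Npm1, the nucleolar protein nucleophosmin, at 0.87 (SD 0.29). Whether these sets differ from the synthesis genes could not be tested with 1 pool per genotype.

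Myc itself read 1.26 on the Cy5 array and 0.94 on the Cy3 array (mean 1.10, SD 0.23) and was called higher. Its paralogue Mycn read -0.0067 and 0.28 (mean 0.14, SD 0.20) and was not called. Markers of other cells moved beside these genes. Of 46 measured markers, 4 were called higher, against 0.412% of all genes. These were Ngp, Camp, S100a8 and S100a9, all of the granulocyte list. In that list 8 of 8 lay above 0 on both arrays, against 25.0% of all genes, with a median of 0.48. Another 8 were called lower, against 1.11% of all genes. Of 15 macrophage and dendritic markers (median -0.16), these were H2-Eb1, Cd74 and Ctss. Among the uncalled ones, Lyz2 (-0.63) and Itgax (-0.62) were also low, whereas Itgam (0.07), Adgre1 (0.06) and Cd14 (-0.07) lay near 0. In that list 10 lay below and 2 above 0 on both arrays, with Mrc1 highest at 0.22. Of 8 B cell markers (median -0.12), Cd79a and Jchain were called, 7 lay below and 1 above, with Ighm highest at 0.15. Of 10 thymic epithelium markers (median -0.13), Epcam, Krt5 and Fezf2 were called, 7 lay below and 0 above. None of the 5 erythroid markers (median -0.07) was called. Their part in the values of the synthesis genes was not tested, and their summed levels are unknown because the file holds ratios.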

How the data were processed

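RNA of thymocytes from 3 mice was pooled per genotype, and each array of 60-base probes received 750 ng of cRNA in either dye for 17 h, per the labels and the series' design text. Per the submitters' processing notes, scans were read with Agilent Feature Extraction 7.1, and the design text gives default settings. As deposited, the values are ratios on a log scale, read as log10, which is that software's convention, and converted here to log2. The base, centring and direction are not stated in the sources used here. The medians of the deposited log10 values were -0.00141 (null in Cy5) and 0.00112 (null in Cy3), and no centring was added. All 82 exact zeros of the second column carry a minus sign and none of the 80 of the first does, so the second column was read as already turned to null over wild type. Features of one gene also correlated better for the mean of the columns (r = 0.327) than for their difference divided by 2 (0.0411). Over all features, with or without a gene name, the columns as deposited correlated with r = -0.447, whereas over the 16504 genes r was 0.238. A negative sign is what genotype differences would give if the second column had not been turned. Dye bias would also give a negative sign if it had been turned, so the sign alone does not settle the direction. Why features and genes differ in sign was not examined, so the direction remains an inference.

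Of 22393 features, 18218 have 1 gene symbol, 16 several and 4159 none. A RefSeq table of GRCm38.p6 gave the current symbol of 18175 by their gene IDs, and features of a gene were averaged, giving 16504 genes. No build of the array was stated, so coordinates come from that table alone. The targeted gene is not reported here.

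The members and lists were chosen with earlier results of these data known. Named were all members, the highest and lowest gene and any called gene of each pathway list, the highest gene of each comparison list, Myc and Mycn. Pfas, Adsl, Dhodh and Mthfd1l were added after their values were seen, to complete the routes. The call rule was run on simulated data only as a check of the code. Noise there was drawn from the dye term, independently for each simulated array, and held no variation between pools. Alternatives were centring, each array alone, other ways to join features, platform symbols, the log base, the sign of the second column and other fold limits. The number of arrays limits the precision. Python 3.11.15, numpy 2.4.6, pandas 2.3.3 and matplotlib 3.10.9 were used.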

Additional observations from a re-analysis of the deposited data

How the results depend on the processing

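No paired analysis was possible because each genotype has 1 pool, read on both arrays, which allows no test across samples. With 1 pool per genotype, the spread between mice is unknown, and without intensities neither is signal over background. Centring and platform symbols moved no member's value and no list median by over 1 SD between the arrays, and the count of members called stayed at 0 under every alternative but 1. On the Cy3 array alone it was 4, which were Gart, Atic, Shmt1 and Shmt2. The median of the members was 0.20 on the Cy5 array alone, 0.30 on the Cy3 array alone, 0.52 with the feature of largest change per gene and 0.12 if the deposited values were log2. If the second column had not been turned, it would be -0.0356, and 1 member, in place of 8, would lie above 0 on both arrays. Of the other pathway and comparison genes, 7 were called, against 23 on the Cy5 array alone, 22 on the Cy3 array alone and 0 both for log2 values and for an unturned second column. Single arrays call more genes because they drop the condition on the other array. The feature of largest change gave 0.52 for Ppat, 0.47 for Cad and 0.63 for Umps, each a move of over 1 SD.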
